A study of Mus musculus with 12 samples.

Results

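A total of 36 imprinted mouse genes that lie outside the Dlk1-Dio3 cluster were examined in fibroblasts cultured from mouse embryos (mouse embryonic fibroblasts, MEFs) that lacked members of the retinoblastoma (Rb) gene family. Genes were matched by the gene symbol of the array annotation, and where a gene had several probe sets, the one brightest on average over the 12 Affymetrix MOE430 2.0 arrays of the series was used. They were ordered by imprinted cluster and by the parental allele from which each is known to be expressed. Of the 36 genes, 33 had a probe set of their own. Zrsr1 and Slc22a3 had none, and H19 was read only by a probe set that is annotated to both Mir675 and H19. The 33 measured genes were 16 expressed from the paternal allele, 16 from the maternal allele and Gnas, whose expressed allele varies by transcript. A mean above background in at least 1 group was found for 23 of them, 11 paternal, 11 maternal and Gnas.

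RNA of 4 groups was measured, with 3 arrays in each. TKO-Ras MEFs carried deletions of Rb1, p107 (Rbl1) and p130 (Rbl2) and were also labelled with mutated Ras (RasG12D), TKO MEFs carried the same 3 deletions, Rb1KO MEFs were labelled with a deletion of Rb1, and wild type (WT) MEFs carried none. All MEFs were untreated and were harvested while growing exponentially. According to the methods the TKO MEFs came from another laboratory, so genotype and origin of the cells cannot be told apart. Arrays of 1 group are labelled as biological replicates, but it is not said whether the embryos or cultures behind them differed, so p-values measure only the spread between these samples.

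Imprinted genes are transcribed mainly from 1 parental allele. DNA methylation laid down in the egg or the sperm marks a control region in most clusters, and the DNA methyltransferase DNMT1 with its partner UHRF1 copies that mark at each cell division. Many paternally expressed genes are known to promote growth of the embryo or placenta and many maternally expressed genes to restrain it, with exceptions in both groups. The arrays measure the RNA of both alleles together, so a change in level does not tell which allele changed.

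Values are on the log2 scale, on which a difference of 1 is a 2-fold change. Olfactory receptor genes, which fibroblasts should not use, served to set the background at 5.13 (the 95th percentile of their probe sets). Where all arrays of a group were at or below it, a fold is only a lower bound. Of the deleted genes, Rb1 ranged over 6.97 to 7.43 in TKO, 7.51 to 7.74 in Rb1KO and 8.31 to 8.70 in WT MEFs. Rbl1 was at background on each TKO array and ranged over 8.32 to 9.0 in Rb1KO and 8.18 to 8.32 in WT MEFs. Rbl2 ranged over 5.27 to 5.71 in TKO, 3.80 to 4.47 in Rb1KO and 7.54 to 7.90 in WT MEFs, so that it was low in Rb1KO MEFs too, although their label names only Rb1. The deleted parts of these genes are not given in the labels. WT array 3 correlated least with the other arrays of its group, at a mean of 0.9736, against 0.9820 to 0.9944 for the other 11 arrays. Of 12 fibroblast markers, 11 were above background in a group. Their summed linear level was 68400 to 72000 on the TKO-Ras arrays, 85700 to 89800 on the TKO arrays, 72500 to 78900 on the Rb1KO arrays and 115000 to 143000 on the WT arrays. Single markers did not move together. Thy1 was at background on each TKO-Ras and TKO array and averaged 6.43 in Rb1KO and 10.83 in WT MEFs. Postn averaged 5.80 in TKO-Ras, 10.17 in TKO, 12.17 in Rb1KO and 12.93 in WT MEFs. Lum averaged 7.06 in TKO and 4.52 in WT MEFs, and Col3a1 averaged 14.30 and 13.68.

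Levels of markers of other cell types also moved with the groups. Of 6 measured cartilage and bone markers, 5 were above background in a group, with summed linear levels of 555 to 827 in TKO-Ras, 927 to 1480 in TKO, 1050 to 1310 in Rb1KO and 2760 to 4480 in WT MEFs. The cartilage genes did not move together. The proteoglycan gene Acan averaged 4.54 in TKO, 7.31 in Rb1KO and 4.73 in WT MEFs, whereas the collagen gene Col2a1 averaged 6.02 in TKO, 5.09 in Rb1KO and 8.20 in WT MEFs and Col11a1 9.57 in TKO, 8.41 in Rb1KO and 11.37 in WT MEFs. Of 12 neural markers, 8 were above background in a group, with summed levels of 2010 to 2600 in TKO-Ras, 1800 to 2530 in TKO, 1120 to 1750 in Rb1KO and 2280 to 3280 in WT MEFs. Sox2, a marker of neural precursors, averaged 8.95 in TKO, 4.77 in Rb1KO and 4.13 in WT MEFs, and Map2, a marker of neurons, averaged 3.64 in TKO, 8.26 in Rb1KO and 10.39 in WT MEFs. Of 9 measured trophoblast markers, 3 were above background in a group (255 to 271 in TKO-Ras, 251 to 269 in TKO, 261 to 268 in Rb1KO and 207 to 232 in WT MEFs), while Cdx2, Elf5 and Tpbpa were not. Eomes averaged 5.94 in TKO, 5.77 in Rb1KO and 4.82 in WT MEFs, and Hand1 averaged 5.45 in TKO, 5.63 in Rb1KO and 5.39 in WT MEFs. Of 8 macrophage and leukocyte markers, 4 were above background in a group (510 to 610 in TKO-Ras, 421 to 466 in TKO, 326 to 360 in Rb1KO and 304 to 329 in WT MEFs), while Ptprc, which marks all leukocytes, was not. Cd14 averaged 8.37 in TKO-Ras, 7.80 in TKO, 7.04 in Rb1KO and 6.55 in WT MEFs. Lyz2 averaged 5.26 in TKO-Ras, 5.11 in TKO, 4.98 in Rb1KO and 5.70 in WT MEFs. Summed levels of muscle (4 of 8 markers above background in a group), adipocyte (3 of 6), endothelial (2 of 8) and epithelial (4 of 8) markers overlapped between TKO and WT and between Rb1KO and WT arrays. The epithelial sum was 1490 to 2290 in TKO-Ras MEFs, against 559 to 850 in TKO MEFs. Its brightest gene, Krt19, averaged 10.48 in TKO-Ras and 8.40 in TKO MEFs, while Cdh1 averaged 2.97 and 3.80. Of the 8 epithelial markers, 0 rose and 1 fell in TKO-Ras against TKO MEFs (adjusted p under 0.05 from limma). The muscle sum was 580 to 937 in TKO-Ras, against 377 to 410 in TKO MEFs. The troponin gene Tnnt2 averaged 8.63 in TKO-Ras and 4.48 in TKO MEFs, and Acta1 averaged 6.65 and 6.94. Of the 8 muscle markers, 1 rose and 0 fell. Of all probe sets, 2.54% rose and 3.13% fell. The part of any of these cell types in the results below was not tested.

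In TKO MEFs, 3 imprinted genes rose and 9 fell against WT MEFs. Among all 45037 probe sets tested, 10.5% rose and 9.01% fell (adjusted p under 0.05 from limma), so that 36.4% of the 33 genes changed, against 19.5% of all probe sets. In these bulk samples, fewer cells that express a gene and less of its RNA per cell cannot be told apart. Changes of 2-fold or more were counted for Slc38a4 and Commd1, which rose (3.14% of all probe sets), and for Peg3, Grb10, Ndn and Plagl1, which fell (3.82% of all probe sets). In Rb1KO MEFs, 5 genes rose and 9 fell against the same WT arrays, against 12.5% and 10.1% of all probe sets, so that 42.4% of the genes changed, against 22.6% of all probe sets. Changes of 2-fold or more were counted for Slc38a4 and Peg10, which rose (3.47% of all probe sets), and for Plagl1, Grb10, Peg3, Ndn and Peg12, which fell (4.59% of all probe sets). The median log2 fold change over the 33 genes was -0.14 in TKO and 0.03 in Rb1KO MEFs, against 0.03 and 0.07 over all probe sets. Both comparisons share the WT arrays and are not independent of each other. The shares, here and below, are of unlike sets. Each imprinted gene was read from its brightest probe set, whereas 38.4% of all probe sets exceeded background on no array. Of 143 genes beside the clusters that are on no list of imprinted genes, read by the same rule, 27.3% changed in TKO and 25.2% in Rb1KO MEFs. The deleted gene Rbl1 is among these neighbours.

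Split by parental allele, 1 of the 16 paternally expressed genes rose and 5 fell in TKO MEFs, and the median log2 fold change was -0.51. Of the 16 maternally expressed genes, 2 rose and 4 fell, with a median of 0.08. In Rb1KO MEFs, 2 paternally expressed genes rose and 4 fell, with a median of -0.09, and 3 maternally expressed genes rose and 4 fell, with a median of 0.15. Genes of either parental class thus moved both ways in both knockouts. Among the genes that fell by 2-fold or more in both knockouts, Peg3, Ndn and Plagl1 are paternally expressed and Grb10 is maternally expressed in most tissues, and Slc38a4, which rose in both, is paternally expressed. A difference between the parental classes was not tested.

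**Figure D1:**
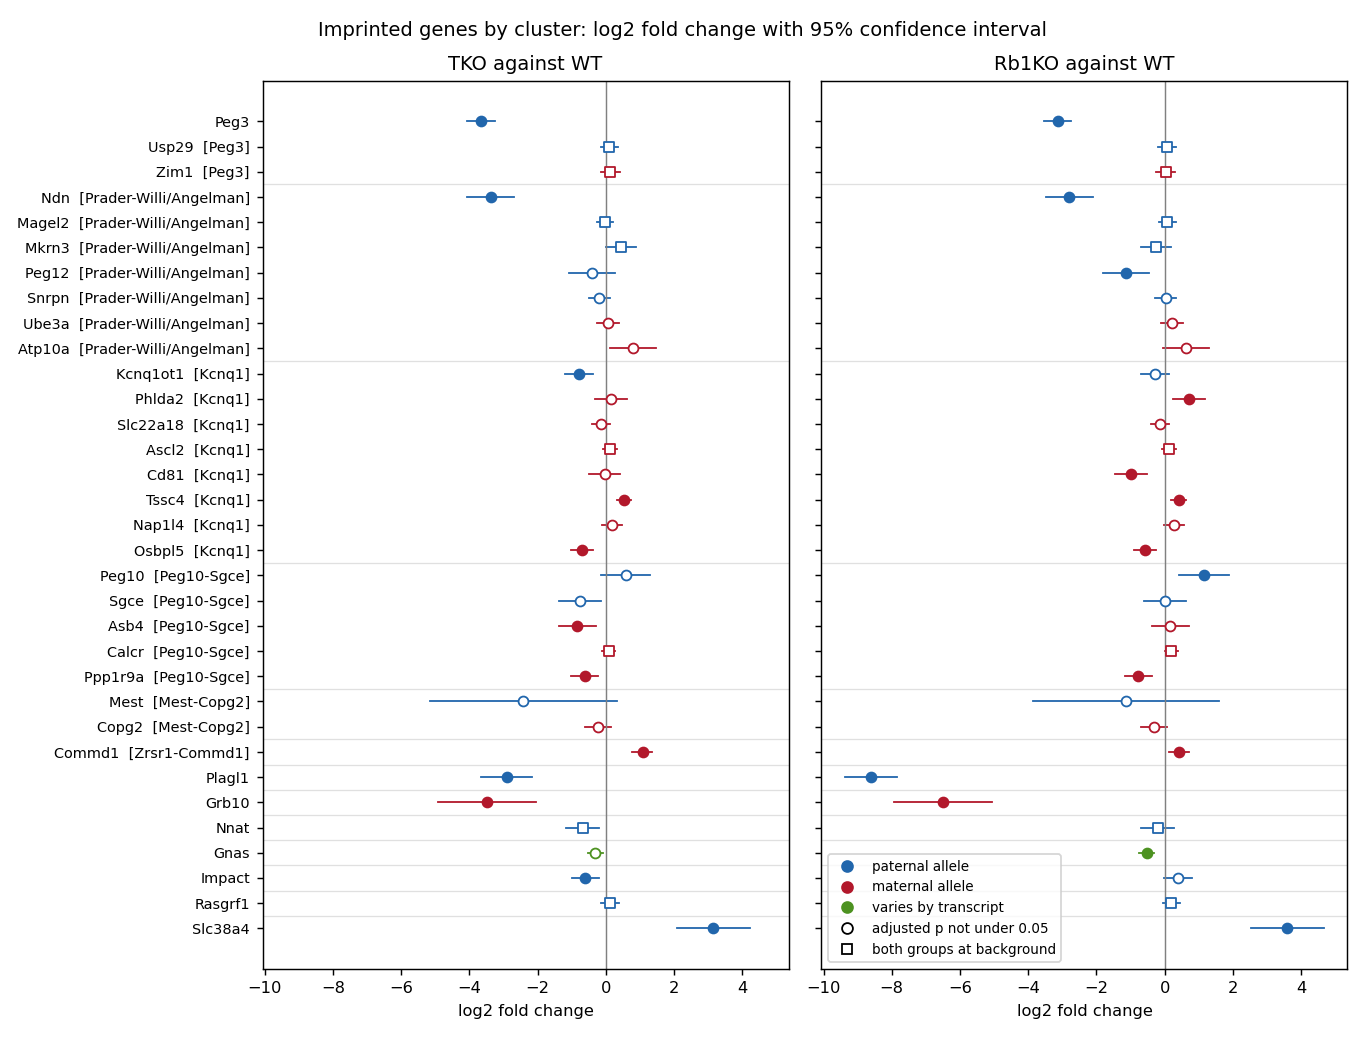
Log2 fold change with its 95% confidence interval for the 33 measured imprinted genes (rows, ordered by cluster, cluster in brackets) in TKO against WT (left) and Rb1KO against WT (right), on 1 shared axis. Filled circles passed an adjusted p under 0.05, open circles did not, squares had every array of both groups at background, and colours give the expressed parental allele. Peg3, Ndn, Plagl1 and Grb10 lie far below 0 and Slc38a4 far above it in both panels, and the interval of Mest is the widest in each.

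The promoters of these 5 genes are shown because their genes moved by 2-fold or more in the same direction in both knockouts. Each sequence is the 250 bases before a RefSeq start of the gene in the build GRCm38.p6, on the strand of the gene. Grb10 and Slc38a4 have more than 1 start, and the first listed is shown. Capitals mark matches, on either strand, to the E2F motifs TTCCCGC and TTGGCGC, E2F factors being the transcription factors that Rb family proteins bind, and to TGCCGC, the motif of ZFP57, which protects imprints after fertilisation. The YY1 motif GCCATNT was also searched. The Peg3 window is chr7:6730420-6730669 (minus strand), that of Ndn chr7:62348027-62348276 (plus), that of Plagl1 chr10:13090582-13090831 (plus), that of Grb10 chr11:12037421-12037670 (minus) and that of Slc38a4 chr15:97055957-97056206 (minus).
Peg3: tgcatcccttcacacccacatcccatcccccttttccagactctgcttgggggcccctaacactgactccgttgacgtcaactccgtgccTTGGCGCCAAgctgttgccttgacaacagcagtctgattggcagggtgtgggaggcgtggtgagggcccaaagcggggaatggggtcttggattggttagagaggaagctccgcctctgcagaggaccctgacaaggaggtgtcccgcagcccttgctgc
Ndn: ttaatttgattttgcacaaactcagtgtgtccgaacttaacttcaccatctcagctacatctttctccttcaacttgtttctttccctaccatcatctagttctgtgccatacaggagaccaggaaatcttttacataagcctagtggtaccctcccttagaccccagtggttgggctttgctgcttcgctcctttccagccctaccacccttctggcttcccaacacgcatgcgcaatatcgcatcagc
Plagl1: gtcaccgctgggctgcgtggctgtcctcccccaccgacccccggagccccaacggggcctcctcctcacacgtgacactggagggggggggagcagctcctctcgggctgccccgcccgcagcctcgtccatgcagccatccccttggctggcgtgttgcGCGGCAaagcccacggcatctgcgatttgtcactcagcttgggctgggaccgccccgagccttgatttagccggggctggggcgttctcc
Grb10: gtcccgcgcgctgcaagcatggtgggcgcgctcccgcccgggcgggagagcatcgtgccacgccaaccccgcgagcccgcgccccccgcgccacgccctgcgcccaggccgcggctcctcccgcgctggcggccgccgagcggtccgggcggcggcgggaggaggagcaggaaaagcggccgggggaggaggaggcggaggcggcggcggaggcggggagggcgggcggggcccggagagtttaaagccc
Slc38a4: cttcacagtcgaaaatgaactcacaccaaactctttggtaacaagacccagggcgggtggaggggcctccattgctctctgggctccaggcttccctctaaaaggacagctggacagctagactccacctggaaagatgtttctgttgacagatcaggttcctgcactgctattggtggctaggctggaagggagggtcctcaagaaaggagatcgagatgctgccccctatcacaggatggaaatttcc

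The windows differed in their number of CG dinucleotides, the bases that carry methylation in mammals. The Grb10 window held 40, that of Plagl1 19, that of Peg3 8, that of Ndn 5 and that of Slc38a4 3. The median was 12.5 over the 48 windows of the 31 imprinted genes that had an entry, several having more than 1 start, and 6 over all 32851 windows of the table. In the Peg3 window the E2F motif TTGGCGC lay on both strands as 2 overlapping matches, and in the Plagl1 window the ZFP57 motif lay on the opposite strand. No motif was matched in these windows of Ndn, Grb10 and Slc38a4. The other Grb10 window held 8 CG and no motif. A further Slc38a4 window, chr15:97020360-97020609, held a YY1 motif. An E2F motif was held by 9 of the 48 windows (18.8%), against 5.62% of all windows, a ZFP57 motif by 7 (14.6%), against 8.68%, and a YY1 motif by 3 (6.25%), against 11.5%. Some windows overlap and hold the same match, as those of Peg3 and Usp29 do for E2F and a pair of Mest windows for ZFP57. With overlapping windows counted as 1 region, the 45 regions of the imprinted genes held an E2F motif in 8 (17.8%), against 5.63% of all regions, and a ZFP57 motif in 6 (13.3%), against 8.73%. Over the 11 windows of the 7 changed genes with an entry, each motif was matched in 1 window (9.09%). These are matches of letters and not measured binding.

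Peg3 encodes a zinc finger protein and is expressed from the paternal allele of a cluster on chromosome 7 that also holds the paternally expressed deubiquitinase gene Usp29 and the maternally expressed zinc finger gene Zim1. Peg3 lay at 5.86, 5.73 and 5.87 on the TKO-Ras arrays, at 5.33, 5.47 and 5.14 on the TKO arrays, at 5.78, 5.55 and 6.16 on the Rb1KO arrays and at 9.10, 9.22 and 8.61 on the WT arrays. Every knockout array was thus far below every WT array and close to background. The log2 fold change was -3.66 in TKO (12.7-fold lower, SE 0.18, adjusted p = 3.6e-07) and -3.14 in Rb1KO MEFs (8.84-fold lower, adjusted p = 1.1e-06). Between TKO and Rb1KO it was -0.52 (adjusted p = 0.13), and between TKO-Ras and TKO 0.50 (adjusted p = 0.15).

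A second Peg3 probe set, 1433924_at, separated the knockouts further. It lay at 5.74, 5.76 and 5.76 on the TKO-Ras arrays, at 4.57, 4.36 and 3.89 on the TKO arrays, at 5.91, 5.96 and 6.09 on the Rb1KO arrays and at 9.80, 9.90 and 9.25 on the WT arrays. Here Peg3 lay at background on the TKO arrays, which puts it at least 22.9-fold below WT (adjusted p = 2.2e-08) and at least 1.81-fold below Rb1KO MEFs (adjusted p = 2.1e-04). TKO-Ras MEFs held at least 1.54-fold more than TKO MEFs (adjusted p = 9.3e-04). On another probe set, 1417356_at, both knockouts were at background, at least 3.13-fold below WT (adjusted p = 5.1e-05 in TKO and 1.1e-04 in Rb1KO MEFs). All 3 Peg3 probe sets that rose above background in a group thus fell in both knockouts. Usp29 (3.73 to 4.17) and Zim1 (3.39 to 3.88) were at background on all 12 arrays, WT included, so that a fall of these neighbours could not be measured. Peg3 and Usp29 are read head to head from RefSeq starts 164 bases apart. In longer windows of 300 bases, which also hold bases past the start, 263 bases are the same DNA.

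Ndn encodes necdin, a protein of the MAGE family that suppresses growth and is known to bind E2F1, and is expressed from the paternal allele of the Prader-Willi/Angelman cluster. Ndn lay at 6.30, 6.09 and 6.37 on the TKO-Ras arrays, at 7.76, 7.64 and 7.04 on the TKO arrays, at 7.38, 8.90 and 7.88 on the Rb1KO arrays and at 10.79, 10.73 and 11.04 on the WT arrays. The TKO-Ras arrays were the lowest, the TKO and Rb1KO arrays overlapped each other, and the WT arrays were above all others. The log2 fold change was -3.37 in TKO (10.4-fold lower, SE 0.32, adjusted p = 3.1e-05) and -2.80 in Rb1KO MEFs (6.96-fold lower, adjusted p = 8.7e-05), with -0.57 between TKO and Rb1KO (adjusted p = 0.35).

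Ndn was the single imprinted gene of the 33 that fell in TKO-Ras against TKO MEFs, by 1.23 on the log2 scale (2.35-fold, adjusted p = 0.044). This call was lost without TKO-Ras array 1, 2 or 3 or TKO array 1 or 2, with values of -1.29 to -1.09 and adjusted p-values of 0.1 to 0.15. The main probe set of Ndn, 1437853_x_at, has the suffix of probe sets that can also bind other transcripts, and it alone stayed above background in TKO-Ras MEFs. On 1435382_at Ndn lay at 3.60, 3.37 and 3.43 on the TKO-Ras arrays, at 8.34, 8.21 and 7.69 on the TKO arrays, at 7.79, 9.66 and 8.09 on the Rb1KO arrays and at 11.44, 11.48 and 11.82 on the WT arrays. There TKO-Ras MEFs were at background, a fall of at least 7.71-fold against TKO MEFs (adjusted p = 4.8e-05). On 1415923_at, 1435383_x_at and 1455792_x_at they were also at background, with falls of at least 4.51-fold, 7.09-fold and 4.42-fold (adjusted p = 6.7e-04, 1.5e-04 and 1.4e-04). All 5 Ndn probe sets above background fell in TKO (log2 fold changes of -3.90 to -3.37) and in Rb1KO MEFs (-3.26 to -2.80) against WT, and the remaining 3 were at background on every array.

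**Figure D2:**
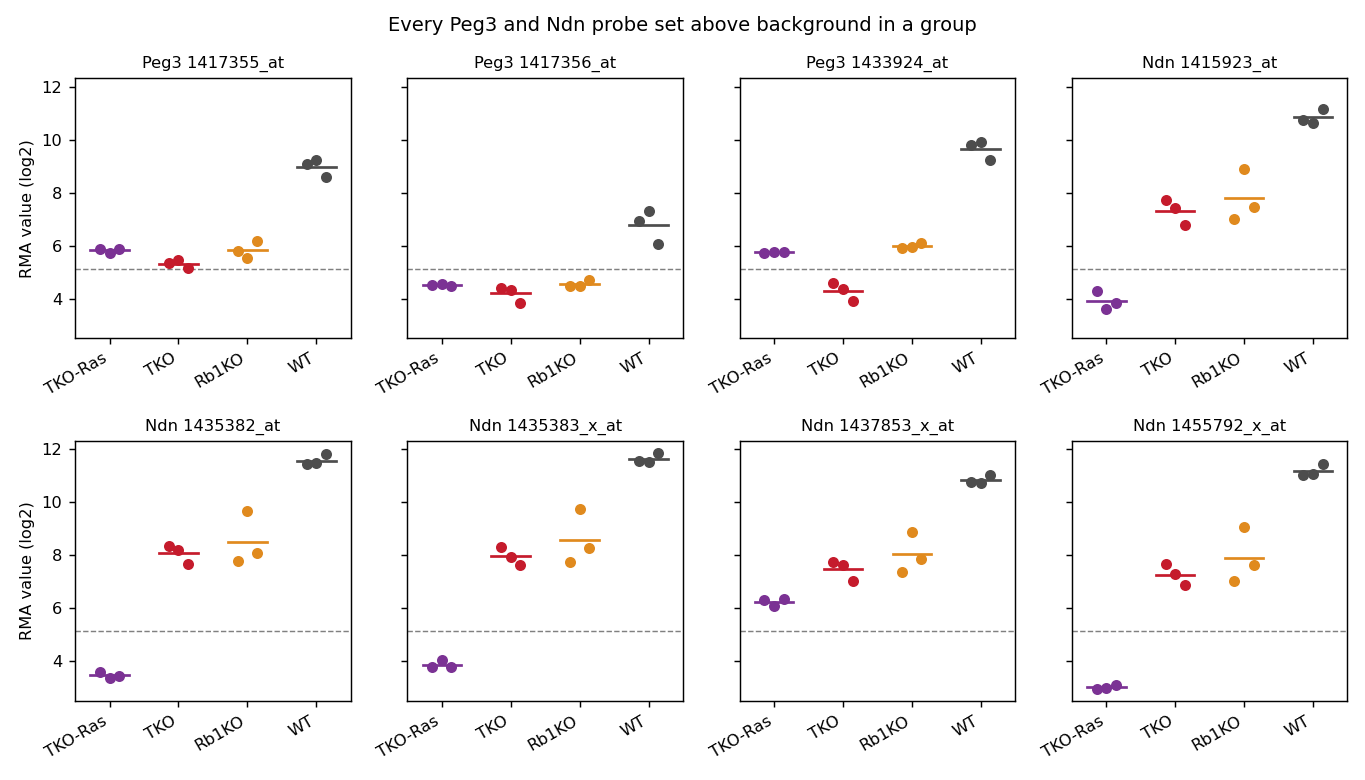
RMA value (log2, y axis) on each of the 12 arrays, by group (x axis), for the 3 Peg3 and 5 Ndn probe sets that were above background in a group, with points for arrays, bars for group means and a dashed line at the background of 5.13. The WT arrays are above all other arrays in every panel, and on 4 of the 5 Ndn panels the TKO-Ras arrays are below the dashed line.

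None of the other 6 measured genes of the Prader-Willi/Angelman cluster was called in TKO MEFs on its main probe set, but 3 probe sets annotated to both Snurf and Snrpn were called lower there. Magel2, another MAGE gene, and Mkrn3, a RING finger gene, were at background on all arrays, WT included, so that a fall could not be measured. Peg12, which encodes an inhibitor of the kinase GSK3, lay at 6.13, 5.38 and 6.28 on the TKO-Ras arrays, at 5.72, 5.59 and 5.21 on the TKO arrays, at 4.58, 5.47 and 4.30 on the Rb1KO arrays and at 6.27, 5.75 and 5.75 on the WT arrays. It was lowest in Rb1KO MEFs, whose arrays were all below the WT arrays. It fell there by 1.14 on the log2 scale (2.20-fold, adjusted p = 0.021), a call that was lost without Rb1KO array 1 or 3 or WT array 1 (-1.04 to -0.90, adjusted p = 0.073 to 0.088), and had a value of -0.41 in TKO MEFs (adjusted p = 0.42). Snrpn, which encodes a spliceosomal protein of neurons, gave -0.19 in TKO and 0.03 in Rb1KO MEFs on its own probe set (log2 fold changes, adjusted p = 0.4 and 0.9).

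Probe sets annotated to both Snurf and Snrpn, which share a transcript, disagreed among themselves. On 1415895_at the mean was 10.31 in TKO, 10.63 in Rb1KO and 10.52 in WT MEFs, with no change called. On 1421063_s_at the mean was 5.10 in TKO, 5.92 in Rb1KO and 7.13 in WT MEFs, a fall of 2.03 in TKO (adjusted p = 0.0017) and of 1.21 in Rb1KO MEFs (adjusted p = 0.026, lost without any of the Rb1KO arrays or WT array 1 or 2, adjusted p = 0.058 to 0.089). In TKO MEFs 1435716_x_at fell by 1.25 (adjusted p = 0.0042) and 1415896_x_at by 0.35 (adjusted p = 0.026). Of the maternally expressed genes of the cluster, the ubiquitin ligase gene Ube3a, imprinted in neurons, had log2 fold changes of 0.08 in TKO and 0.21 in Rb1KO MEFs (adjusted p = 0.78 and 0.36), although 2 of its 5 probe sets above background rose in Rb1KO MEFs. The flippase gene Atp10a lay at 8.62 to 8.79 on the TKO-Ras arrays, above the 7.61 to 8.0 of the TKO arrays, with 0.96 as its log2 fold change (adjusted p = 0.1). On a second Atp10a probe set, 1452013_at, the same comparison gave 0.97 (adjusted p = 0.041).

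Plagl1 (Zac1) encodes a zinc finger protein that arrests cell growth. It lay at 9.15, 9.03 and 9.27 on the TKO-Ras arrays, at 9.04, 8.94 and 8.87 on the TKO arrays, at 3.11, 3.56 and 3.08 on the Rb1KO arrays and at 11.13, 11.55 and 12.89 on the WT arrays. The TKO and TKO-Ras arrays lay between the WT arrays and the Rb1KO arrays, which were at background. Plagl1 fell by 2.90 in TKO MEFs (7.49-fold, SE 0.34, adjusted p = 1.4e-04) and was at least 105-fold lower in Rb1KO than in WT MEFs (adjusted p = 6.7e-08). Without WT array 3, the highest of the WT arrays, the fall in TKO MEFs was 5.23-fold and the bound in Rb1KO MEFs 73.7-fold (adjusted p = 2.5e-06 and 3.8e-10). TKO MEFs held at least 14.1-fold more of it than Rb1KO MEFs (adjusted p = 2.0e-06), with 0.20 between TKO-Ras and TKO (adjusted p = 0.81). This probe set, 1426208_x_at, can bind other transcripts. On 1438588_at, where the TKO arrays lay at 5.0, 4.96 and 4.85, the Rb1KO arrays at 4.90, 4.96 and 5.16 and the WT arrays at 5.34, 5.69 and 6.30, Plagl1 was at least 1.56-fold lower in TKO (adjusted p = 0.0098) and fell by 0.77 in Rb1KO MEFs (adjusted p = 0.014). The difference between TKO and Rb1KO on that probe set was -0.07 (adjusted p = 0.89). All of their arrays except Rb1KO array 3 were at background there, so that probe set can neither show nor exclude a difference. The higher level of Plagl1 in TKO than in Rb1KO MEFs thus rests on 1 probe set.

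Grb10 encodes an adaptor that dampens insulin receptor signalling and restrains growth. It lay at 7.0, 8.41 and 7.45 on the TKO-Ras arrays, at 8.60, 8.52 and 8.72 on the TKO arrays, at 5.97, 5.05 and 5.77 on the Rb1KO arrays and at 12.98, 13.16 and 10.17 on the WT arrays. As for Plagl1, the Rb1KO arrays were the lowest and the WT arrays the highest. WT array 3 was far below the other WT arrays but above every knockout array. The log2 fold change was -3.49 in TKO (11.2-fold lower, SE 0.65, adjusted p = 0.0031) and -6.51 in Rb1KO MEFs (90.8-fold lower, adjusted p = 4.1e-05). Without WT array 3 these were 21.9-fold (adjusted p = 5.6e-06) and 178-fold (adjusted p = 9.7e-08). Grb10 was 8.10-fold higher in TKO than in Rb1KO MEFs (log2 fold change 3.02, adjusted p = 0.017), a call that was lost without TKO array 2 or 3 or Rb1KO array 2 or 3 (2.75 to 3.10, adjusted p = 0.05 to 0.071). Between TKO-Ras and TKO it was -0.99 (adjusted p = 0.46). On 1425457_a_at and 1430164_a_at both knockouts were at background, at least 1.76-fold and 1.68-fold below WT (adjusted p = 0.019 to 0.026). WT array 3 was itself at background there (4.54 and 4.44), and without it the bounds were 2.87-fold and 2.76-fold. These calls were lost without any other array of the groups compared (adjusted p = 0.051 to 0.1), except that of 1430164_a_at in TKO MEFs without TKO array 1 (adjusted p = 0.044).

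Slc38a4, a transporter of amino acids that is paternally expressed in embryo and placenta, moved the opposite way. It lay at 9.36, 9.60 and 9.87 on the TKO-Ras arrays, at 11.14, 11.12 and 10.92 on the TKO arrays, at 11.35, 11.41 and 11.74 on the Rb1KO arrays and at 8.02, 6.50 and 9.18 on the WT arrays. All knockout arrays were above all WT arrays, among which the spread was wide. It was 8.92-fold higher in TKO (log2 fold change 3.16, SE 0.48, adjusted p = 8.6e-04) and 12.1-fold higher in Rb1KO than in WT MEFs (3.60, adjusted p = 2.9e-04). Without WT array 2 these folds were 5.48 and 7.44, and without WT array 3 they were 13.9 and 18.9, all of them called. On a second Slc38a4 probe set, 1448889_at, the log2 fold changes were 3.29 and 3.32. Between TKO-Ras and TKO the value was -1.45 (adjusted p = 0.12), with no overlap of the arrays, and a fit of those groups alone gave an adjusted p of 0.0015. It was not called under any other alternative, and 1448889_at (-1.08) was not called either.

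Commd1, a maternally biased gene whose protein acts in copper handling and NF-kB control, rose moderately. It lay at 11.04, 11.32 and 10.97 on the TKO-Ras arrays, at 11.18, 11.20 and 11.04 on the TKO arrays, at 10.58, 10.36 and 10.55 on the Rb1KO arrays and at 10.16, 10.23 and 9.80 on the WT arrays. The Rb1KO arrays lay between the TKO and the WT arrays without overlap. It rose by 2.11-fold in TKO (log2 fold change 1.08, adjusted p = 2.4e-04) and by 1.35-fold in Rb1KO MEFs (0.43, adjusted p = 0.04), and was higher in TKO than in Rb1KO MEFs (0.64, adjusted p = 0.015). The call in Rb1KO against WT was lost without Rb1KO array 1 or 3 or WT array 1 or 3 (0.30 to 0.48, adjusted p = 0.056 to 0.12), and that in TKO against Rb1KO without TKO array 1 or 2 or Rb1KO array 2 (0.57 to 0.62, adjusted p = 0.05 to 0.065). Its partner Zrsr1, an intronic retrogene expressed from the paternal allele, was not analysed here.

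**Figure D3:**
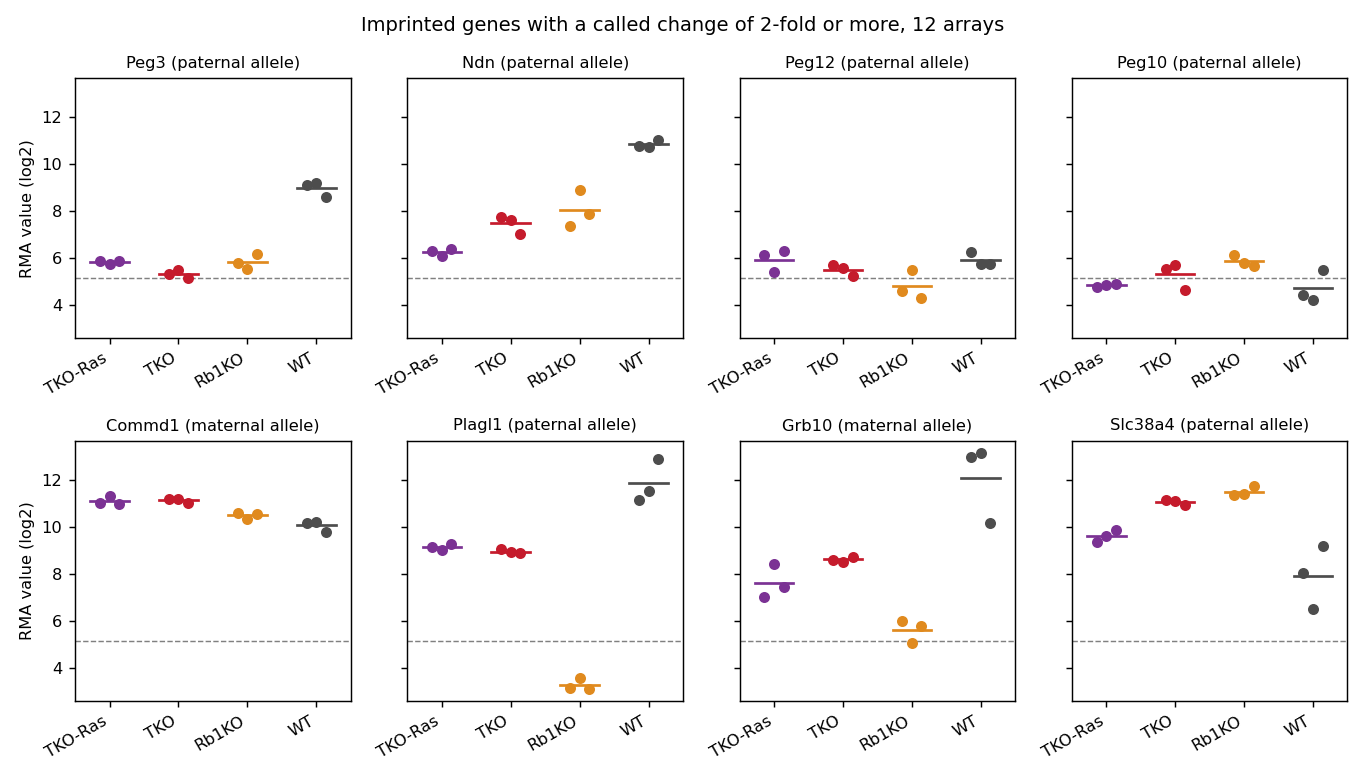
RMA value (log2, y axis) on each of the 12 arrays, by group (x axis), for the 8 imprinted genes with a called change of 2-fold or more whose higher group averaged above background, with points for arrays, bars for group means and a dashed line at the background of 5.13. Ndn and Peg3 are low in all 3 knockout groups, Plagl1 and Grb10 are lowest in Rb1KO MEFs, and Slc38a4 is above every WT array in all knockout groups.

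In the Peg10-Sgce cluster, 2 of 5 genes fell in TKO MEFs, and 1 rose and 1 fell in Rb1KO MEFs, or 40% of the genes in each, against 19.5% and 22.6% of all probe sets. Peg10, a gene derived from a retrotransposon and needed in the placenta, lay at 4.77, 4.85 and 4.88 on the TKO-Ras arrays, at 5.54, 5.72 and 4.64 on the TKO arrays, at 6.13, 5.80 and 5.66 on the Rb1KO arrays and at 4.42, 4.21 and 5.49 on the WT arrays. It was above background on every Rb1KO array and, of the WT arrays, on WT array 3 alone. It was 2.22-fold higher in Rb1KO than in WT MEFs (log2 fold change 1.15, adjusted p = 0.026), a call that was lost without Rb1KO array 1 or 2 or WT array 1 or 2 (0.90 to 1.18, adjusted p = 0.062 to 0.095). In TKO against WT MEFs Peg10 had a value of 0.59 (adjusted p = 0.26), which became 0.98 (adjusted p = 0.02) without WT array 3. Sgce, the epsilon-sarcoglycan gene that shares its control region with Peg10, had values of -0.74 in TKO and 0.02 in Rb1KO MEFs (adjusted p = 0.091 and 0.98). The maternally expressed genes Asb4 and Ppp1r9a were called lower in TKO MEFs (-0.83 and -0.62, adjusted p = 0.034 and 0.032), and Ppp1r9a in Rb1KO MEFs (-0.77, adjusted p = 0.0098), but their group means did not exceed background. The 2 calls in TKO MEFs were lost without any of the TKO arrays or without WT array 3 (adjusted p = 0.051 to 0.094 for Asb4 and 0.073 to 0.084 for Ppp1r9a). Calcr, the calcitonin receptor gene, was at background on all arrays.

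In the Kcnq1 cluster, where the paternally expressed noncoding RNA Kcnq1ot1 silences neighbouring genes on its own allele, 1 of 8 measured genes rose and 2 fell in TKO MEFs, and 2 rose and 2 fell in Rb1KO MEFs, or 37.5% and 50% of the genes, against 19.5% and 22.6% of all probe sets. All of these changes were under 2-fold. Kcnq1ot1 fell in TKO MEFs (-0.77, adjusted p = 0.014), a call lost without TKO array 2 or WT array 1 (-0.61 in each case, adjusted p = 0.061 and 0.055), with -0.28 in Rb1KO MEFs (adjusted p = 0.33). Its second probe set above background, 1457781_at, gave -1.23 in TKO MEFs (adjusted p = 0.017). The maternally expressed genes of the cluster did not rise together beside it. Tssc4 rose in TKO (0.54, adjusted p = 0.0023) and Rb1KO MEFs (0.42, adjusted p = 0.009), while Osbpl5, an oxysterol-binding protein gene, fell in TKO (-0.69, adjusted p = 0.0075) and Rb1KO MEFs (-0.58, adjusted p = 0.016, lost without Rb1KO array 3 or WT array 2, adjusted p = 0.057 to 0.065).

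Cd81, which encodes a tetraspanin of the cell surface, lay at 12.59, 12.63 and 12.83 on the TKO arrays, at 11.85, 11.28 and 12.05 on the Rb1KO arrays and at 12.76, 13.06 and 12.32 on the WT arrays. Its Rb1KO arrays were below all others. It fell by 0.98 in Rb1KO against WT MEFs (adjusted p = 0.0055), had a value of -0.03 in TKO MEFs (adjusted p = 0.95), and was higher in TKO than in Rb1KO MEFs by 0.95 (adjusted p = 0.018, lost without TKO array 2 or 3 or Rb1KO array 2, with 0.73 to 0.98 and adjusted p = 0.053 to 0.07). Phlda2, which restrains placental growth, was at background in WT MEFs and at least 1.33-fold higher in Rb1KO MEFs (adjusted p = 0.03, lost without Rb1KO array 1 or 2 or WT array 1 or 3, adjusted p = 0.057 to 0.11). It lay at 6.02, 5.55 and 6.10 on the TKO-Ras arrays and at 5.19, 4.91 and 4.89 on the TKO arrays, which did not overlap. Phlda2 rose by 0.89 in TKO-Ras against TKO MEFs (1.86-fold, adjusted p = 0.03), a call lost without TKO-Ras array 1 or 3 or TKO array 2 or 3 (0.79 to 0.85, adjusted p = 0.1 to 0.12). The transporter gene Slc22a18 and the histone chaperone gene Nap1l4 were not called on their main probe sets in any comparison, although 1417809_at of Slc22a18, with a WT mean of 5.22 near background, was called lower in TKO and Rb1KO MEFs (adjusted p = 0.0019 and 0.0013). Ascl2, a trophoblast transcription factor gene, was at background on all arrays.

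Impact, a paternally expressed gene whose protein inhibits the stress kinase pathway of GCN2, lay at 10.22, 9.77 and 10.45 on the TKO-Ras arrays, at 10.30, 10.56 and 10.49 on the TKO arrays, at 11.53, 11.27 and 11.50 on the Rb1KO arrays and at 10.97, 10.80 and 11.37 on the WT arrays. The TKO arrays were below all Rb1KO arrays (-0.98, adjusted p = 0.0072) and below all WT arrays (-0.60, adjusted p = 0.042). The call against WT was lost without any of the TKO arrays or without WT array 1 or 3 (-0.65 to -0.44, adjusted p = 0.071 to 0.14). The other 2 Impact probe sets above background passed in neither comparison. Their values reached 0.06 in TKO against WT and 0.31 in TKO against Rb1KO MEFs. Both calls were lost when the probe sets of the gene were averaged. In Rb1KO against WT MEFs Impact had a value of 0.38 (adjusted p = 0.17), and on 1446751_s_at one of 0.42 (adjusted p = 0.039, lost without Rb1KO array 2 or 3 or WT array 1 or 2, adjusted p = 0.089 to 0.15). Gnas, which encodes the stimulatory G protein alpha subunit among other products, fell in Rb1KO MEFs (-0.52, adjusted p = 0.0025) and had a value of -0.30 in TKO MEFs (adjusted p = 0.052) on its main probe set. On 1443375_at it fell by 1.06 in TKO (2.09-fold, adjusted p = 0.0029) and by 0.83 in Rb1KO MEFs (adjusted p = 0.01). A further Gnas probe set near background, 1453413_at, was also called lower in TKO and Rb1KO MEFs (adjusted p = 0.0045 and 0.012). Copg2, a coatomer gene, was not called in any comparison. Nnat, a proteolipid gene of neurons, and Rasgrf1, a Ras exchange factor gene, were at background on all arrays, as were 6 further genes named above (Usp29, Zim1, Magel2, Mkrn3, Ascl2 and Calcr).

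Mest and H19 were the genes on which the WT arrays disagreed most. Mest, a paternally expressed gene of a hydrolase-like protein, lay at 4.95, 5.18 and 5.54 on the TKO-Ras arrays, at 5.65, 5.36 and 5.18 on the TKO arrays, at 6.85, 6.70 and 6.50 on the Rb1KO arrays and at 6.06, 5.46 and 11.94 on the WT arrays. WT array 3 was 6.19 above the mean of WT arrays 1 and 2, which were close to the TKO arrays. No change of Mest was called, with -2.42 in TKO (adjusted p = 0.22) and -1.13 in Rb1KO MEFs (adjusted p = 0.57). Without WT array 3 the value in TKO MEFs was -0.36 (adjusted p = 0.31), and that in Rb1KO MEFs turned to 0.93 (adjusted p = 0.0089).

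The probe set annotated to both Mir675 and H19, a maternally expressed noncoding RNA and the microRNA within it, lay at 3.97, 4.21 and 4.02 on the TKO-Ras arrays, at 4.0, 4.14 and 3.73 on the TKO arrays, at 3.94, 3.60 and 3.92 on the Rb1KO arrays and at 8.51, 6.27 and 13.14 on the WT arrays. All 9 knockout arrays were at background and all WT arrays were above it, at levels that differed widely among themselves. H19 was at least 18.0-fold lower in TKO and in Rb1KO than in WT MEFs (adjusted p = 0.0093 and 0.0068). Without WT array 3 the bound was 4.77-fold (adjusted p = 2.8e-04 and 1.7e-04), without WT array 2 it was 51.6-fold (adjusted p = 7.4e-04 and 5.5e-04), and with only the groups compared in the fit the calls were lost (adjusted p = 0.074 and 0.056). Because the probe set names 2 genes, it was left out of the counts of the 33 genes.

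WT array 3 differed by 2-fold or more from the mean of WT arrays 1 and 2 for 6 of the 24 imprinted genes with a WT array above background (25%), against 10.5% of 25761 such probe sets. It was higher for Mest (6.19), Slc38a4 (1.92), Plagl1 (1.55) and Peg10 (1.18) and lower for Grb10 (-2.90) and Atp10a (-1.13). Of these 6 genes, the 4 higher ones are paternally expressed and the 2 lower ones maternally expressed, while H19, which is maternally expressed, was higher by 5.75. Without WT array 3, 4 of the 33 genes rose and 6 fell in TKO MEFs, and 6 rose and 9 fell in Rb1KO MEFs. Peg3 and Ndn were then 14.4-fold and 9.71-fold lower in TKO MEFs, close to their values with that array.

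**Figure D4:**
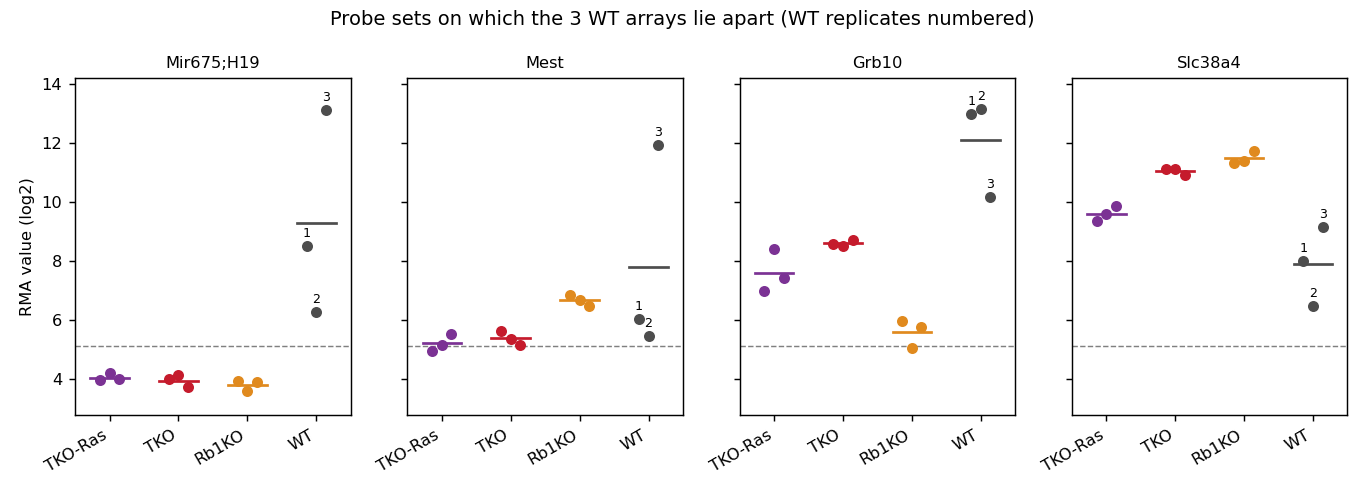
RMA value (log2, y axis) on each of the 12 arrays, by group (x axis), for the probe set of Mir675 and H19 and for Mest, Grb10 and Slc38a4, with points for arrays, bars for group means, WT replicates numbered and a dashed line at the background of 5.13. WT array 3 is the highest WT array for H19 (13.14), Mest (11.94) and Slc38a4 (9.18) and the lowest for Grb10 (10.17).

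Between TKO and Rb1KO MEFs, 4 imprinted genes were higher in TKO and 2 were lower, against 4.19% and 2.99% of all probe sets (18.2% of the 33 genes, against 7.17%). Those higher in TKO were Plagl1, Grb10, Cd81 and Commd1, and those lower were Impact and Asb4, the last near background (-1.0, adjusted p = 0.029, lost without any of the TKO arrays or without Rb1KO array 1 or 3, adjusted p = 0.065 to 0.11). The median over the 33 genes was -0.09, against -0.04 over all probe sets. Between TKO-Ras and TKO MEFs, Phlda2 was higher and Ndn lower, against 2.54% and 3.13% of all probe sets (6.06% of the 33 genes, against 5.67%). The median was 0.05, against 0.04 over all probe sets. The share of imprinted genes that changed with the mutated Ras was therefore close to that of all probe sets.

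Further imprinted genes, among them those of the Dlk1-Dio3 cluster, were read as a comparison. Of 24 measured, 2 rose and 10 fell in TKO MEFs, with a median log2 fold change of -0.39, and 1 rose and 10 fell in Rb1KO MEFs, with a median of -0.45. Of all probe sets, 10.5% rose and 9.01% fell in TKO MEFs, and 12.5% rose and 10.1% fell in Rb1KO MEFs. The noncoding RNA Meg3 fell by 7.01 in TKO and by 6.09 in Rb1KO MEFs, and Rian was at least 60.9-fold lower in TKO MEFs and fell by 5.29 in Rb1KO MEFs. Igf2, the growth factor gene beside H19, fell by 3.51 in TKO MEFs (adjusted p = 0.037), a call lost without any of the TKO arrays or without WT array 1 or 3 (-3.80 to -2.12, adjusted p = 0.064 to 0.12), and was 30.1-fold lower without WT array 2, against 11.4-fold with it. H13, a signal peptide peptidase gene, fell by 2.06 in TKO (adjusted p = 5.1e-07) and by 1.79 in Rb1KO MEFs (adjusted p = 1.4e-06), while Mcts2, a paternally expressed retrogene within an intron of H13, rose by 1.82 in TKO (adjusted p = 3.2e-06) and by 1.60 in Rb1KO MEFs (adjusted p = 6.9e-06). Igf2r, the maternally expressed receptor that clears IGF2, and Airn, the noncoding RNA that silences it on the paternal allele, both fell in TKO (-1.55 and -1.69, adjusted p = 0.01 and 0.0038) and in Rb1KO MEFs (-2.21 and -2.12, adjusted p = 0.001 and 7.5e-04).

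Between the other groups few of these genes changed. The paraoxonase gene Pon3, which lies beside the Peg10-Sgce cluster, fell by 3.14 in Rb1KO MEFs (adjusted p = 6.4e-04; 14.7-fold without WT array 3, against 8.84-fold with it) and was higher in TKO than in Rb1KO MEFs by 2.57 (adjusted p = 0.0066). Sfmbt2, a polycomb gene, was also higher in TKO than in Rb1KO MEFs (1.70, adjusted p = 0.0092), and Meg3 lower (-0.92, adjusted p = 0.019, lost without TKO array 1 or Rb1KO array 2 or 3, adjusted p = 0.066 to 0.075). Dcn, the decorin gene of the extracellular matrix, was higher in TKO than in WT MEFs by 2.20 (adjusted p = 0.049, lost without TKO array 2 or 3 or WT array 1 or 2, adjusted p = 0.089 to 0.18, and 8.40-fold without TKO array 1, against 4.61-fold with it). It was the only one called in TKO-Ras against TKO MEFs, where it fell by 3.49 (adjusted p = 0.014, lost without TKO-Ras array 1 or TKO array 2 or 3, adjusted p = 0.06 to 0.063, and 20.5-fold without TKO array 1, against 11.3-fold with it).

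Of 12 factors that set or keep imprints, 6 rose and the other 6 did not pass the test in TKO MEFs. In Rb1KO MEFs 6 rose and 1 fell. Of all probe sets, 10.5% rose in TKO MEFs, and 12.5% rose and 10.1% fell in Rb1KO MEFs. Uhrf1 rose by 2.17 in TKO (adjusted p = 1.7e-05) and by 2.12 in Rb1KO MEFs (adjusted p = 1.6e-05), and Dnmt1 by 1.27 (adjusted p = 3.0e-05) and 1.57 (adjusted p = 5.9e-06). Both genes are known to be transcribed mainly in dividing cells. The de novo methyltransferase gene Dnmt3a fell in Rb1KO MEFs by 2.39 (adjusted p = 2.7e-05) and had a value of -0.37 in TKO MEFs (adjusted p = 0.31), with a difference of 2.02 between TKO and Rb1KO (adjusted p = 2.5e-04). It fell by 1.21 in TKO-Ras against TKO MEFs (adjusted p = 0.0096). Methylation itself was not measured.

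The genes beside the clusters gave a local comparison, with up to 5 measured protein-coding genes on each side of a cluster that are on no list of imprinted genes. Of 143 such genes, 20 rose and 19 fell in TKO MEFs, with a median log2 fold change of 0.04, and 16 rose and 20 fell in Rb1KO MEFs, with a median of 0.05. These were 27.3% of the neighbours in TKO and 25.2% in Rb1KO MEFs, against 19.5% and 22.6% of all probe sets. The deleted gene Rbl1, beside Nnat, is among the neighbours and counts among the 19 that fell in TKO MEFs. Beside Peg3, 2 of 10 fell in TKO MEFs and the other 8 were not called, the log2 fold changes being -1.18 to 0.34. Beside the Prader-Willi/Angelman cluster the 10 neighbours did not pass the test in TKO MEFs, with values of -0.51 to 0.28. Beside Grb10, 2 rose and 1 fell, with values of -0.49 to 2.22, and beside Plagl1, 1 rose and 3 fell, with values of -2.46 to 0.45. Beside Slc38a4, 3 rose in TKO MEFs and 7 did not pass the test, with values of -0.07 to 1.21. In these 5 regions no neighbour reached the log2 fold change of the imprinted gene in TKO MEFs. The regions were chosen for the large change of that gene, so this is not a test of whether the change was local. Over all 143 neighbours the values in TKO MEFs were -5.16 to 2.22, the lowest of them beside Rasgrf1.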

How the data were processed

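RNA of MEFs was measured on Affymetrix MOE430 2.0 arrays, each loaded with 100 ng of total RNA. Per the labels' processing notes and the methods, the authors corrected background, normalized the arrays and summarised probe sets by RMA in Partek Genomics Suite 6.5. Deposited values were taken to be log2 values, since their scale is not named and they range from 2.18 to 14.92. The 64 manufacturer controls were left out of 45101 probe sets, and 45037 were tested, of which 34945 carried 1 gene symbol. Genes on a probe set with several symbols were given apart. No detection calls are in the file, so 44 olfactory receptor probe sets gave the background (their 95th percentile), a level that 38.4% of probe sets did not exceed on any array.

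All 12 arrays entered 1 limma fit (version 3.58.1, R 4.3.3; lmFit, then eBayes, 8 residual degrees of freedom, 2-sided), with contrasts of TKO-Ras against TKO, of TKO against Rb1KO, and of TKO and Rb1KO each against WT. Adjusted p-values are from limma with the Benjamini-Hochberg method over all 45037 probe sets, and a change was called under 0.05. The script was tested on simulated data.

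The imprinted genes and all lists were chosen with earlier results of these data known. Values per array are given for genes with a called change of 2-fold or more whose higher group averaged above background. Per-array values of Cd81, Impact, Mest, H19 and, in part, Phlda2 were added after their values were seen. Further imprinted genes and factors that set or keep imprints were named by the same 2-fold rule, at most 6 a list and comparison. Meg3 in TKO against Rb1KO and Dnmt3a in TKO against WT lay outside it. So did Airn and Igf2r in TKO against WT and Mcts2 in Rb1KO against WT, which were not among the 6 largest there. Marker lists were given by counts and sums. Promoters came from RefSeq (GRCm38.p6), without the gene for H19, Nap1l4, Peg10, Sgce and Impact, and coordinates are of that build and not of the arrays.

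Alternatives were an intensity trend with robust moderation, the contrasts of the methods without moderation, a replicate block, only the groups compared, median centring, cyclic loess, a filter that kept probe sets with 3 or more arrays above background, averaging a gene's probe sets, only probe sets without a suffix, other background percentiles, and each array left out in turn. Leaving arrays out for further probe sets of Grb10, Gnas, Slc22a18 and Impact, and counting overlapping promoter windows as 1 region, were added after the data were seen. Other packages were the R package data.table (version 1.17.8), pandas 2.3.3 and matplotlib 3.10.9 in Python 3.11.15.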

Additional observations from a re-analysis of the deposited data

How the results depend on the processing

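Over all alternatives, 16 of the 34 called pairs of gene and comparison were called under every one, and 18 lost the call under at least one. Of 1920 values of the 33 genes under an alternative, 68 changed sign, 66 of them where neither value passed the test. The exceptions were Mest in Rb1KO against WT MEFs, which was -2.31 to 0.93 when an array was left out, positive only without WT replicate 3, and Plagl1 in TKO against Rb1KO MEFs, which was -0.07 with only probe sets without a suffix, where another probe set reads the gene. That Plagl1 probe set was at or near background in both groups. The counts of genes higher and lower in TKO against WT (3 and 9) and lower in Rb1KO against WT (9) stayed within 1.5 times under all alternatives.

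The count higher in Rb1KO against WT (5) was 3 without moderation, 2 with only the groups compared, 3 with cyclic loess, 3 with only probe sets without a suffix, and 2 to 6 when an array was left out. In TKO against Rb1KO, the count higher (4) was 2 without moderation, 1 with only probe sets without a suffix and 1 to 4 when an array was left out, and the count lower (2) was 1 without moderation, 1 with only probe sets above background and 1 to 2 when an array was left out. In TKO-Ras against TKO, the count higher (1) was 0 without moderation, 3 with only the groups compared, 2 with only probe sets without a suffix and 0 to 1 when an array was left out, and the count lower (1) was 0 without moderation, 2 with only the groups compared and 0 to 1 when an array was left out. The cause of these shifts was not tested.

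Samples of different groups share only a replicate number, and deviations of same-numbered arrays correlated at -0.21 to 0.19. With the replicate number as a block, 2 genes rose and 0 fell in TKO-Ras against TKO, where Ndn had an adjusted p of 0.065 (5 of its probe sets were called in the fit without the block) and Atp10a of 0.049. Median centring moved the median of all probe sets to 0.09 and 0.08 in TKO and Rb1KO against WT.

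The 8 genes at background on all arrays allow no statement on change. With background at the 90th or 99th percentile of olfactory receptors (4.88 or 5.82), 26 or 23 genes were above it in a group. The number of arrays limits the precision of every value.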
